A study of Mus musculus with 3 samples.

Results

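Transcript levels were compared between RAW 264.7 cells, a mouse macrophage line, that had received harmine and then lipopolysaccharide (LPS) and cells of the same line left untreated. The comparison takes each gene's log2(FPKM + 1) in harmine plus LPS minus that in control, where FPKM counts sequenced fragments per kilobase of transcript, scaled to the size of the library. It covers the 12020 of 26661 genes with 1 FPKM or more in at least 1 of these 2 libraries. The harmine plus LPS cells were given 10 µM harmine, then 0.5 h later 0.5 µg/ml LPS, which stayed on for 6 h. A library of cells given the same LPS for 6 h with no harmine is quoted beside them. The control cells grew in common medium without any drug. All 3 libraries carry the genotype label WT and the line's name. Each group holds 1 library, so nothing below has a replicate check, no test was run and no p-value is given: the values describe these libraries. No library of cells given harmine alone was analysed here, so what harmine adds without LPS, and what the 2 agents do together, cannot be told apart. The LPS library and the harmine plus LPS library are set against the same control, so their differences from it share that library.

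LPS, a glycolipid of the bacterial outer membrane, is bound by the receptor TLR4 with its partners CD14 and MD-2. Adaptors then carry the signal to NF-kB and MAP kinases, which drive cytokine and chemokine genes, and to IRF3, which drives interferon beta. Secreted interferon acts back on the macrophage through its receptor and JAK kinases and raises antiviral genes. Harmine is a plant beta-carboline known to inhibit the kinase DYRK1A and the enzyme monoamine oxidase A.

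The deposited counts summed to 56391972 in harmine plus LPS, 52845589 in LPS and 58169999 in control. Macrophage markers were present in all of them: Cd68, a lysosomal glycoprotein, stood at 602 FPKM in harmine plus LPS, 444 in LPS and 522 in control, and Spi1, the myeloid factor PU.1, at 127, 121 and 99.0. The labels give lung as the tissue, and the lung epithelial markers Sftpb, Foxj1, Ager and Hopx were under 1 FPKM in all 3 libraries, with Sftpb at 0 in harmine plus LPS and in control. Of the 4 compared markers on that list, the general epithelial genes Epcam, Cdh1, Krt8 and Krt18, 3 were 2-fold or more higher in harmine plus LPS. All but Krt8 were under 1 FPKM in control and were compared through their level in harmine plus LPS. The list summed to 20.5 FPKM in harmine plus LPS, 14.0 in LPS and 4.89 in control. Transcripts of some other tissues were also found, and those of gut and skin were more abundant in both treated libraries. Of 49 compared genes typical of small intestine and plasma cells, gathered after the values were seen, 44 stood at least 2-fold above control and none at least 2-fold below, with a summed level of 926 FPKM in harmine plus LPS, 917 in LPS and 246 in control. The antimicrobial alpha-defensins of Paneth cells made up 21 of the 44, and Fabp2, a fatty acid carrier of enterocytes, stood at 50.2 FPKM in harmine plus LPS, 45.5 in LPS and 15.0 in control. Of 14 compared keratin, collagen and skin genes, 12 were 2-fold or more higher, with summed levels of 41.3, 37.3 and 6.45 FPKM in the same order. The gut and plasma cell genes held 0.0792% of the counts in harmine plus LPS and 0.0212% in control. Fibroblast markers had 3 of 4 compared genes higher in harmine plus LPS and keratinocyte markers 4 of 4, but all 8 were under 1 FPKM in control and were compared through their level in harmine plus LPS, as were 13 of the 14 keratin, collagen and skin genes and 10 of the 49 gut and plasma cell genes. Erythroid markers had none of 4 past 2-fold on the FPKM + 1 scale. The FPKM ratios to control of Hbb-bs, Hbb-bt, Hba-a1 and Hba-a2 were 2.14, 2.60, 1.34 and 2.17. The erythroid list summed to 18.9 FPKM in harmine plus LPS, 8.29 in LPS and 9.73 in control. Dendritic cell markers summed to 0.697, 0.765 and 2.22 FPKM in the same order, but Siglech carried most of the control sum, at 0.319, 0.258 and 2.08 FPKM. The others, Flt3, Xcr1, Zbtb46 and Ccr9, were under 1 FPKM in all 3 libraries and each lay above control in harmine plus LPS. Macrophage markers had 1 of 10 higher and 5 lower. Markers of endothelium, B cells, neutrophils and mast cells had no gene at 1 FPKM in harmine plus LPS or control. What part these transcripts have in the differences below was not tested. In bulk RNA, fewer cells of a type and less RNA per cell cannot be told apart.

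**Figure D1:**
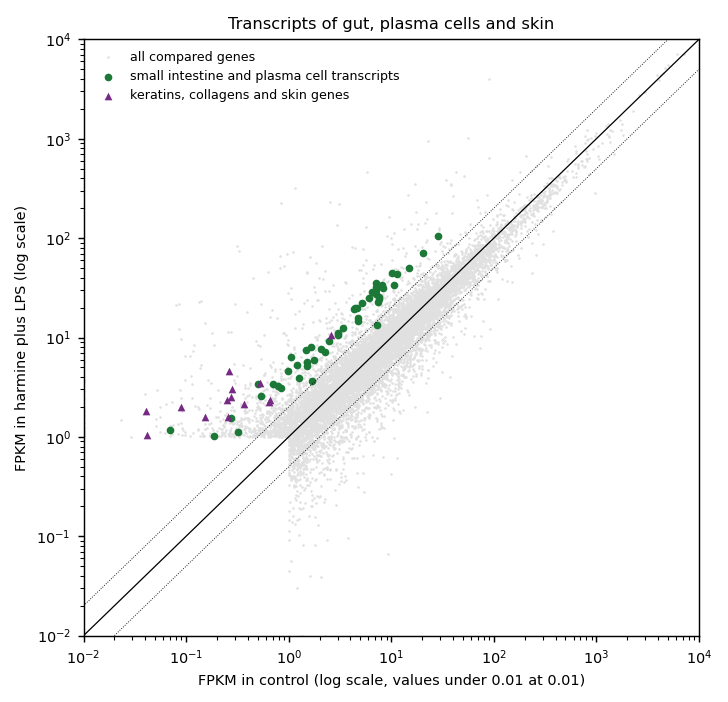
FPKM in harmine plus LPS (vertical, log scale) against control (horizontal, log scale) for all compared genes in grey, the small intestine and plasma cell transcripts as circles and the keratin, collagen and skin genes as triangles. The solid line marks equal levels and the dotted lines 2-fold; 44 of the 49 circles and 12 of the 14 triangles were called higher on the FPKM + 1 scale, and the circles had a median FPKM ratio of 3.87.

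In harmine plus LPS, 627 genes were 2-fold or more higher than in control, 5.22% of those compared, and 593 were 2-fold or more lower, 4.93%. The differences were steeper on the higher side: 170 genes, 1.41%, were 4-fold or more higher and 47, 0.391%, were 4-fold or more lower. At 1.5-fold, 12.2% of the compared genes were higher and 13.7% lower. The other genes lay close to equality, with 89.9% within 2-fold, 74.1% within 1.5-fold and a median of -0.02 log2 over all compared genes. The genes called higher held 8.88% of all counts in harmine plus LPS against 1.96% in control, and those called lower 2.25% against 6.33%. Without the markers of other cell types and the gut, plasma cell, keratin and collagen genes, 569 were higher and 592 lower. Among the called genes, 190 higher and 153 lower ones were under 5 FPKM in both libraries. The 95% exact interval of the FPKM ratio from read pairs lay wholly beyond 2-fold for 558 of the higher and 499 of the lower genes, which covers counting error and not the spread between cultures. Scaling bore on the balance: 51.4% of the calls were higher as deposited and 67.8% after rescaling on the upper quartile, which moved the median of all genes to 0.16 log2.

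**Figure D2:**
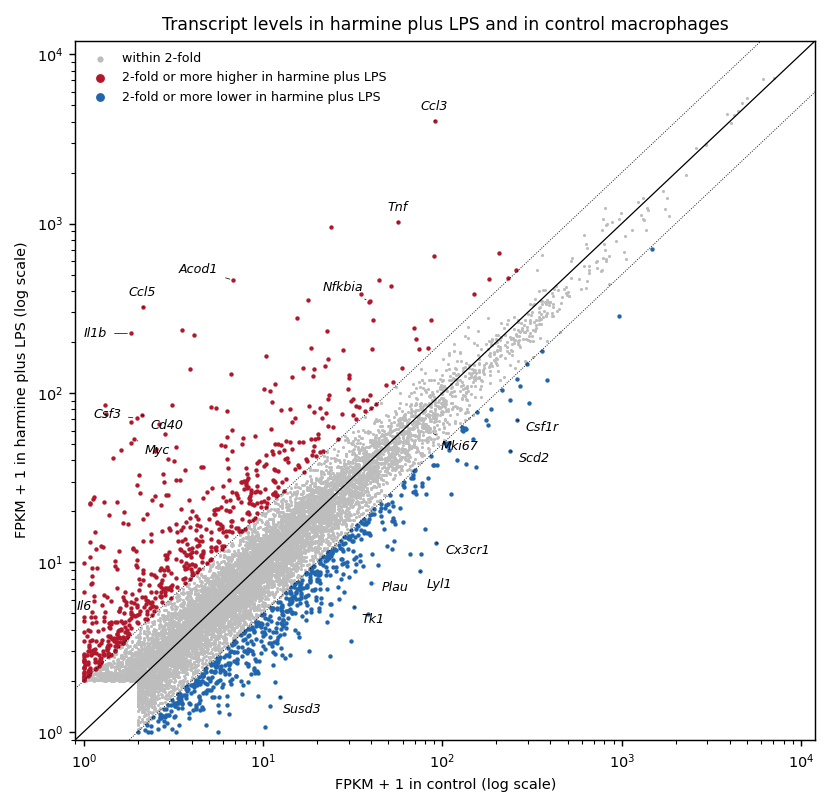
FPKM + 1 in harmine plus LPS (vertical, log scale) against control (horizontal, log scale), 1 point for each of the 12020 compared genes, with 627 higher genes in red, 593 lower genes in blue and the rest in grey. The solid line marks equal levels and the dotted lines 2-fold; Ccl5, Il1b and Acod1 lie farthest above the line among the named genes.

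Secreted mediators were prominent among the genes above control. Members under 1 FPKM in control were compared through their level in harmine plus LPS. The filter thus favours higher calls in the lists that follow. These members were 9 of 19 cytokines, 5 of 12 chemokines, 12 of 33 antiviral genes and 4 of 7 interferon-inducible GTPases. They were also 7 of 14 acute phase, 5 of 21 immediate early, 5 of 20 costimulation and 4 of 14 nitric oxide, prostaglandin and itaconate genes. In the osteoclast and heat shock lists they were 4 of 9 and 2 of 12, and the other gene lists below held 2 or fewer. They were not counted for the annotated pathways and factor families at the end. Beside every list stand 5.22% higher and 4.93% lower of all compared genes. Of 19 compared interleukins and growth factor cytokines, 16 stood at least 2-fold above control and none at least 2-fold below, with a median of 2.76 log2, beside 3.64 log2 for LPS against control. Il1b, which encodes the pyrogenic cytokine interleukin 1 beta (chromosome 2, 129364570 to 129371139, mm10), stood at 224 FPKM in harmine plus LPS, 484 in LPS and 0.836 in control. That is 268-fold above control (95% counting interval 180 to 398). Both treated libraries were far above the control library, and the one with harmine lay below the one without. Il1a, its sister cytokine, stood at 83.9 FPKM in harmine plus LPS, 123 in LPS and 0.312 in control. Csf3, the granulocyte growth factor, stood at 70.0, 476 and 0.971 FPKM in that order, and Lif, the leukaemia inhibitory factor, a relative of interleukin 6, at 21.6, 53.8 and 0.0849 FPKM. Tnf, the early inflammatory cytokine tumour necrosis factor, was already present in control, at 1016 FPKM in harmine plus LPS against 55.6 in control, 18.3-fold higher (17.4 to 19.3). Il6 reached 3.54 FPKM in harmine plus LPS and 20.4 FPKM in LPS, and was without counts in control. With the control library set to a floor of 3 read pairs, Il6 was 47.6-fold higher in harmine plus LPS. The lower end of its 95% counting interval was 38.2-fold. Csf1, the growth factor that keeps macrophages alive, was among the members whose level with harmine plus LPS was at or above that with LPS, at 6.46 FPKM in harmine plus LPS, 4.78 in LPS and 0.0973 in control. Tnfsf9, the ligand of the costimulatory receptor 4-1BB, was another, at 88.2, 54.6 and 30.0 FPKM. Il18, Vegfa and Tgfb1 were the 3 members within 2-fold of control on the FPKM + 1 scale, Il18 with an FPKM ratio of 2.12.

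Of 12 compared chemokines, which draw leukocytes, 10 stood at least 2-fold above control and 1 at least 2-fold below, with a median of 5.00 log2, beside 5.37 log2 for LPS. Ccl5, an attractant of T cells and monocytes, had the largest difference of all genes with 10 FPKM or more, 7.22 log2, at 319 FPKM in harmine plus LPS, 355 in LPS and 1.15 in control. Ccl3, an attractant of monocytes, had the highest level of the named genes, at 4026 FPKM in harmine plus LPS, 8466 in LPS and 89.8 in control. Cxcl2, an attractant of neutrophils, stood at 219 FPKM in harmine plus LPS, 985 in LPS and 3.13 in control. Each of these was high in both treated libraries, but the distance between those libraries differed from gene to gene. Cxcl10, an interferon-inducible attractant of T cells, stood at 49.9 FPKM in harmine plus LPS, 47.5 in LPS and 0.831 in control. Cxcl14 was the member on the other side, at 1.57, 1.82 and 6.04 FPKM. Ccl22 and Ccl4 differed from control by 5.82 and 5.33 log2. Among 14 acute phase, complement and matrix proteins, 5 were higher and 3 lower. Spp1, the secreted matrix protein osteopontin, stood at 670.5, 939 and 206 FPKM in harmine plus LPS, LPS and control, and Plau, the urokinase-type plasminogen activator, at 6.53, 3.81 and 39.2 FPKM in the same order.

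Stretches of the promoters of 3 leading genes are shown because they hold matches to motifs of inflammatory promoters. All promoter sequences here are RefSeq's, on GRCm38.p6, each read along the gene's strand, and positions count bases before the annotated start. Capitals mark kB consensus matches in Cxcl2 and Nfkbia, and a TATA box, spelled TATAAA, in Il1b. In Cxcl2 the pair of kB matches overlap by all but their end bases, 97 to 88 and 96 to 87 bases before the start, so they are a single stretch (chr5:90903794-90903903, plus strand). The Nfkbia match lies 29 to 20 bases before the start (chr12:55492643-55492707, minus strand), and the Il1b box 31 to 26 bases before it (chr2:129371135-129371189, minus strand).
Cxcl2: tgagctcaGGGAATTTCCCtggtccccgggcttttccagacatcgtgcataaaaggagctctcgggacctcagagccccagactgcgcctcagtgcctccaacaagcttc
Nfkbia: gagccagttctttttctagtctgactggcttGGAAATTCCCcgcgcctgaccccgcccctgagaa
Il1b: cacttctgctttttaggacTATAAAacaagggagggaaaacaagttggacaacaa

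**Figure D3:**
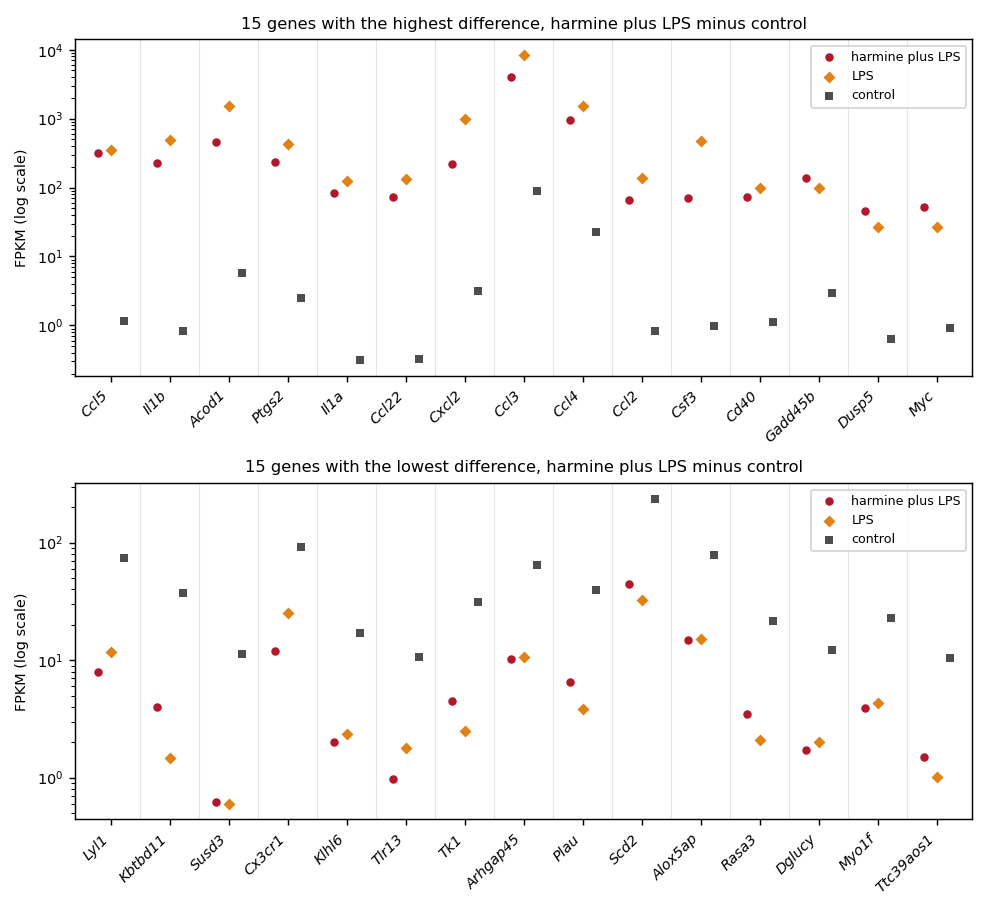
FPKM on a log scale in harmine plus LPS (circles), LPS (diamonds) and control (squares), 1 library each, for the 15 named genes with the highest difference between harmine plus LPS and control (upper panel) and the 15 with the lowest (lower panel). In the upper panel both treated libraries lie above control for each gene, from Ccl5 at 7.22 log2 to Myc at 4.81 log2, and in the lower panel both lie below it.

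Interferon-stimulated genes were higher nearly throughout. Of 33 compared antiviral genes, 31 stood at least 2-fold above control and none at least 2-fold below, with a median of 2.69 log2, beside 3.32 log2 for LPS. The interferon-inducible GTPases attack the vacuoles of microbes. Of the 14 listed, 7 were compared and these were higher, but 4 of them only passed the filter through harmine plus LPS; Irgm1, Irgm2 and Igtp, which passed it in control as well, differed by 3.15, 2.65 and 2.48 log2. Isg15, a ubiquitin-like protein that is joined to others in infected cells, stood at 84.1 FPKM in harmine plus LPS, 219 in LPS and 2.09 in control. Usp18, which removes it again, stood at 64.6, 88.6 and 1.62 FPKM. Rsad2, which encodes the antiviral enzyme viperin, was 142-fold above control in harmine plus LPS (66.4 to 396), at 12.1 FPKM against 0.0855. Oas2, a sensor of double-stranded RNA, stood at 53.2 FPKM in harmine plus LPS, 49.0 in LPS and 6.75 in control. Genes of the Oas1, Ifit, Gbp and Trim30 groups have close copies, so their single values are uncertain. The 2 antiviral genes within 2-fold were Bst2, which tethers virus particles, at 107 FPKM in harmine plus LPS against 54.1 in control, and Samhd1, a nucleotide-degrading enzyme, at 14.7 against 16.3.

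The factors that carry the interferon signal differed less evenly. Of 21 compared interferon genes, receptors, IRF and STAT factors, 7 stood at least 2-fold above control and 1 at least 2-fold below, with a median of 0.38 log2. Irf7, the interferon-inducible regulator of interferon genes, stood at 46.9 FPKM in harmine plus LPS, 70.2 in LPS and 2.25 in control. Irf9 and Stat2, which act together on interferon-stimulated genes, were higher by 1.64 and 1.54 log2. Ifnb1, encoding interferon beta, was found in harmine plus LPS at 1.76 FPKM and in LPS at 6.05, with no counts in control. With the control library set to the floor of 3 read pairs, Ifnb1 was 7.34-fold higher in harmine plus LPS. The lower end of its counting interval was 5.395-fold. Ifnar2, a chain of the receptor for interferon beta, was the member on the lower side. It stood at 10.8 FPKM in harmine plus LPS against 24.5 in control. Irf3 and Irf5, factors present before a stimulus, differed by 0.11 and 0.19 log2.

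Stretches of 4 promoters show the interferon-stimulated response element (ISRE), searched as GAAANNGAAA on both strands. Capitals mark its matches, and in Cxcl10 also kB consensus matches and a CCAAT box. In Isg15 3 matches overlap end to end, from 78 to 57 bases before the start (chr4:156200814-156200918, minus strand), and in Irgm1 2 matches overlap, from 30 to 15 (chr11:48871416-48871470, minus strand). Ifit1 has 2 separate matches, at 104 to 95 and 85 to 76 (chr19:34640774-34640858, plus strand). Cxcl10 has an ISRE at 213 to 204 and kB matches at 159 to 150 and, as 2 overlapping matches, at 104 to 94 (chr5:92348920-92349109, minus strand). It is thus the gene shown that holds both motifs.
Isg15: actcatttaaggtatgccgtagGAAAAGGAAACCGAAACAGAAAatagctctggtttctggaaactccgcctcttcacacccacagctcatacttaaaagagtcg
Irgm1: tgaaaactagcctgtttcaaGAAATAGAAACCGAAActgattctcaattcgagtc
Ifit1: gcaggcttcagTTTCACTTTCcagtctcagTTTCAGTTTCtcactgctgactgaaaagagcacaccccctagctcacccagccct
Cxcl10: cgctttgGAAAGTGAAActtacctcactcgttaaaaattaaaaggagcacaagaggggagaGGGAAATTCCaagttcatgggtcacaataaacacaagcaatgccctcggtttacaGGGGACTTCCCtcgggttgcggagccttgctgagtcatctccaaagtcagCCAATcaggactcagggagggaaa

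Over all promoters the same letters were more frequent among the higher genes. A promoter of 300 bases, from 250 before to 50 after the start, was matched for 7653 compared genes, of which 390 were higher and 381 lower. The kB consensus was found in 15.9% of the higher, 9.97% of the lower and 10.0% of all compared promoters, and in 25.2% of the 111 promoters of genes 4-fold or more higher. The ISRE was found in 12.3% of the higher, 2.1% of the lower and 3.19% of all promoters, and in 14 of the 25 antiviral genes with a promoter. The TATA box, sought on the gene's strand 20 to 40 bases before the start, was found in 5.38% of the higher, 2.1% of the lower and 1.1% of all promoters. The higher promoters were poorer in G and C, with a median of 56% against 60.3% in the lower and 61% in all promoters, and base composition alone changes how often a motif of given letters occurs. A match is a description of the letters and not a bound site.

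**Figure D4:**
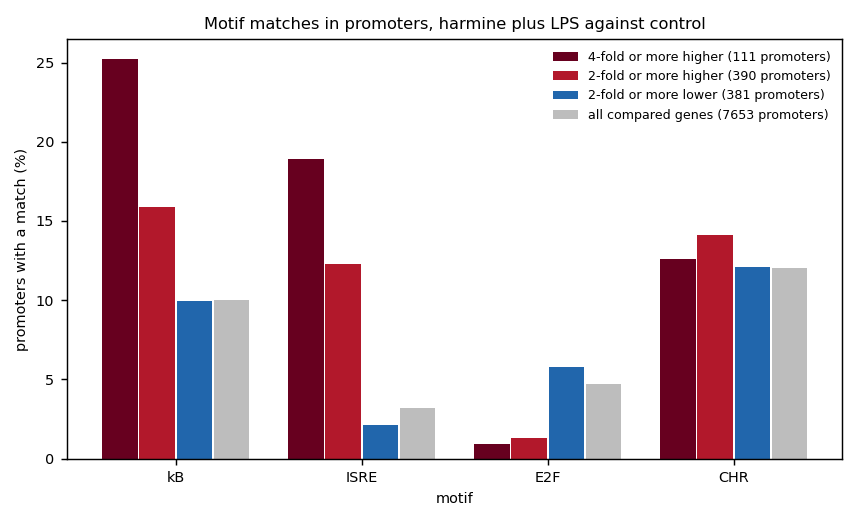
Share of promoters with at least 1 match (vertical, percent) for 4 motifs, in genes 4-fold or more higher (111 promoters), 2-fold or more higher (390), 2-fold or more lower (381) and all compared genes (7653), for harmine plus LPS against control. The kB bars stand at 25.2%, 15.9%, 9.97% and 10.0%, and the ISRE bars at 18.9%, 12.3%, 2.1% and 3.19%.

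Inhibitors and regulators of NF-kB were among the higher genes. Of 24 compared NF-kB subunits, inhibitors and ubiquitin regulators, 12 stood at least 2-fold above control and none at least 2-fold below, with a median of 1.05 log2. Nfkbia, which encodes the inhibitor that holds NF-kB in the cytoplasm (chromosome 12, 55489410 to 55492647), stood at 346 FPKM in harmine plus LPS, 338 in LPS and 38.1 in control. Nfkbiz, an atypical inhibitor that also aids transcription of secondary response genes, stood at 56.6, 78.9 and 1.84 FPKM. Tnfaip3, the ubiquitin-editing enzyme A20, stood at 29.5, 31.6 and 2.26 FPKM. The subunit genes Rel, Nfkb2 and Nfkb1 were higher by 2.72, 2.64 and 2.22 log2, whereas Rela differed by 0.15 and the kinase genes Ikbkb, Chuk and Ikbkg by 0.28, 0.30 and -0.03. For Nfkbia and Tnfaip3 the treated libraries lay close together.

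Of 20 compared Toll-like receptors and adaptors, 3 were higher, Cd14, Tlr1 and the kinase Irak2, and 1 was lower. That is 15% and 5%, beside 5.22% and 4.93% of all compared genes. Cd14, the carrier that hands LPS to TLR4, stood at 476 FPKM in harmine plus LPS, 813 in LPS and 231 in control. Tlr13, a receptor for bacterial ribosomal RNA, was lower by more than any other member, at 0.965 FPKM in harmine plus LPS against 10.7 in control. Tlr4 itself stood at 2.12 against 4.87 FPKM, within 2-fold on the FPKM + 1 scale.

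Immediate early genes and phosphatases that switch MAP kinases off had 14 of 21 compared members higher and none lower, with a median of 1.41 log2. The list's median with LPS was 1.51 log2, and 9 of the 21 members stood higher in harmine plus LPS than in LPS. Myc, the growth-promoting factor, stood at 52.4 FPKM in harmine plus LPS, 27.0 in LPS and 0.905 in control. Dusp5, a phosphatase of nuclear ERK, stood at 45.1, 27.1 and 0.624 FPKM, and Ier3, an early survival gene, at 275, 217 and 14.5 FPKM. Egr2, a zinc finger factor, stood at 4.88, 1.71 and 0.419 FPKM, while its relative Egr1 stood at 16.6, 34.6 and 5.61 FPKM. Fos, among the earliest of these genes to be switched on and off, stood at 9.76 against 19.7 FPKM at this time, within 2-fold on the FPKM + 1 scale. The MYC partner and nucleolar list had no member of 16 past 2-fold in either direction, with a median of 0.27 log2. Npm1 and Ncl, abundant nucleolar proteins, differed by 0.23 and 0.21 log2.

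Brakes on cytokine signalling were 5 higher and 2 lower of 14, 35.7% and 14.3% beside 5.22% and 4.93% of all compared genes. Socs3, an inhibitor of JAK kinases, stood at 129 FPKM in harmine plus LPS, 144 in LPS and 5.66 in control. The mRNA decay factors Zfp36 and Zc3h12a, which shorten the life of cytokine transcripts, were higher by 2.73 and 2.52 log2. Zfp36l2, a relative of Zfp36, stood at 9.15 FPKM in harmine plus LPS against 33.8 in control, and Ptpn6, the phosphatase SHP-1, at 79.3 against 186.

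On the cell surface, 12 of 20 compared costimulation and antigen presentation genes lay 2-fold or more above control and none as far below, with a median of 1.16 log2. Cd40, through which T cells activate macrophages, stood at 73.1 FPKM in harmine plus LPS, 98.6 in LPS and 1.1 in control. Cd83, a marker of maturing antigen-presenting cells, stood at 164, 93.7 and 9.43 FPKM, and Icosl, the ligand of the T cell receptor ICOS, at 23.7, 19.1 and 1.51 FPKM. Icam1, an adhesion molecule, stood at 127 FPKM in harmine plus LPS against 29.0 in control. The peptide-loading gene Tap1 was higher by 1.19 log2, and the class I genes H2-K1 and H2-D1 and the immunoproteasome gene Psmb8 were within 2-fold, at 0.54, 0.39 and -0.37 log2. Class I genes have close copies, so their values are uncertain.

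Of 16 compared macrophage identity genes, 7 were 2-fold or more lower, 2 higher and 7 within 2-fold, with a median of -0.77 log2, beside -0.66 log2 for LPS. Csf1r, the receptor for the macrophage growth factor, stood at 68.2 FPKM in harmine plus LPS, 65.8 in LPS and 259 in control. Cx3cr1, the receptor for fractalkine, stood at 12.1, 25 and 91.3 FPKM, 7.58-fold lower in harmine plus LPS than in control (7.06 to 8.14). Trem2, a lipid-sensing receptor, stood at 8.63 against 42.5 FPKM, and Lyz2, the macrophage lysozyme, at 283 against 967. Reads of Lyz2 may be shared with its copy Lyz1. The 2 higher members were the anaphylatoxin receptors C3ar1, at 12.8 FPKM in harmine plus LPS, 18 in LPS and 2.65 in control, and C5ar1, at 4.87, 33.7 and 1.73 FPKM. Among 14 phagocytic, scavenger and lectin receptors, 1 was higher and 2 lower, 7.14% and 14.3% beside 5.22% and 4.93% of all compared genes. Fcgr1, the high-affinity receptor for IgG, stood at 5.67 FPKM in harmine plus LPS, 13.8 in LPS and 27.2 in control.

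The 15 lowest named genes had varied roles. Lyl1, a haematopoietic bHLH factor, had the largest negative difference of the named genes, -3.08 log2, at 7.87 FPKM in harmine plus LPS, 11.8 in LPS and 73.9 in control. Arhgap45, a GTPase-activating protein of blood cells, stood at 10.3, 10.7 and 64.8 FPKM, and Alox5ap, the protein that presents arachidonic acid to 5-lipoxygenase, at 14.7, 15.2 and 78.8 FPKM. Rasa3, a Ras GTPase-activating protein, and Myo1f, a myosin of immune cells, differed from control by -2.34 and -2.29 log2. Both treated libraries lay below control in each of these.

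Enzymes of inflammatory mediators went both ways. Of 14 compared nitric oxide, prostaglandin and itaconate genes, 7 stood at least 2-fold above control and 4 at least 2-fold below. Acod1, which makes the antibacterial metabolite itaconate (chromosome 14, 103046977 to 103056573), stood at 462 FPKM in harmine plus LPS, 1519 in LPS and 5.83 in control. Ptgs2, the inducible cyclooxygenase, stood at 233, 425 and 2.53 FPKM, and Nos2, the inducible nitric oxide synthase, at 27.7, 32.5 and 0.981 FPKM. The inducible enzymes were thus high in both treated libraries. The 4 lower genes were Ptgs1, the constitutive cyclooxygenase, at 4.13 FPKM in harmine plus LPS against 17.5 in control, Hpgds, which makes prostaglandin D2, and the leukotriene genes Alox5ap and Alox5. The differences of these 4 ran between -2.34 and -1.44 log2.

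The NADPH oxidase and antioxidant list had 1 of 20 members higher and 1 lower, and a median of -0.55 log2 in harmine plus LPS, beside -0.003 log2 in LPS. At 1.5-fold, 9 members were lower and 2 higher, beside 13.7% and 12.2% of all compared genes. Ftl1, the light chain of the iron store ferritin, stood at 1104 FPKM in harmine plus LPS, 1801 in LPS and 1828 in control, and its partner Fth1 at 620.4, 941 and 1055 FPKM. For this pair the harmine plus LPS library was below both of the others, which lay close together. Slc7a11, the cystine importer, was the higher member at 4.49 FPKM against 1.16 in control, and G6pdx, which feeds the pentose phosphate pathway, the lower member at 45.2 against 107.

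Energy metabolism was shifted by less than 2-fold in most genes. All 26 compared citrate cycle and nuclear respiratory genes had a negative difference, with a median of -0.42 log2, a range of -1.07 to -0.19 and 1 member past 2-fold, the isocitrate dehydrogenase Idh1. For the 13 transcripts made from mitochondrial DNA the median was 0.13 log2, beside -0.29 log2 in LPS, and none passed 2-fold. Glycolysis genes had a median of -0.11 log2, or 0.10 after upper-quartile scaling, and 1 of 19 past 2-fold. That member was Pdk1, a pyruvate dehydrogenase kinase, on the lower side at -1.03 log2. Cytosolic ribosomal protein genes had a median of -0.27 log2 and reference genes -0.24, with none of 20 and none of 13 past 2-fold, so small negative medians were common among abundant housekeeping genes.

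Lipid synthesis held some of the larger negative differences. Of 16 compared LXR target and fatty acid genes, 5 were 2-fold or more lower, Scd2, Scd1, Fads1, Fads2 and Elovl6, which desaturate or elongate fatty acids. Scd2, a stearoyl-CoA desaturase (chromosome 19, 44293674 to 44306864), stood at 44.5 FPKM in harmine plus LPS, 32.6 in LPS and 237 in control. Fads2 stood at 37.0, 36.2 and 135.3 FPKM. Lpl, the lipoprotein lipase, was the higher member, at 179.98 FPKM in harmine plus LPS against 72.6 in control. Among 21 cholesterol genes 2 were lower, 9.52% beside 4.93% of all compared genes, with a list median of -0.36 log2. Dhcr7, a late enzyme of the pathway, stood at 3.25 FPKM in harmine plus LPS, 3.50 in LPS and 11.95 in control.

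Most cell cycle genes lay below control by modest amounts. Of 32 compared DNA replication and G1/S genes, 5 were 2-fold or more lower, 19 were 1.5-fold or more lower, beside 13.7% of all compared genes, and none was 2-fold higher. Their median was -0.69 log2 in harmine plus LPS, beside -1.20 log2 in LPS. Tk1, the S-phase thymidine kinase, stood at 4.46 FPKM in harmine plus LPS, 2.48 in LPS and 31.2 in control, 7.00-fold lower in harmine plus LPS than in control (6.26 to 7.79). Mcm6, a subunit of the replicative helicase, stood at 38.3, 23.5 and 67.7 FPKM, and Ccnd1, cyclin D1, at 36.7, 28.1 and 87.2 FPKM. In each of these the harmine plus LPS library lay between the others. Of 30 G2/M genes 2 were lower, Foxm1, a factor that drives mitotic genes, and Ccna2, cyclin A2. That is 6.67%, near the 4.93% of all compared genes, and the list median was -0.43 log2 beside -1.0 log2 in LPS. Mki67, the proliferation marker, stood at 57.8 FPKM in harmine plus LPS, 30.8 in LPS and 84.5 in control. Of 24 DNA repair and chromatin genes 4 were lower, Lig1, Uhrf1 and Dnmt1 among them. That is 16.7%, beside 4.93% of all compared genes, and the list median was -0.59 log2 beside -1.16 log2 in LPS. Dnmt1, which copies DNA methylation at replication, stood at 49.5, 30.1 and 108 FPKM.

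Promoter stretches of Mcm6 and Mki67 are shown because the replication and mitosis lists differed from all genes in the letters they hold. Capitals in Mcm6 mark E2F matches (TTTCCCGC, TTTCGCGC, TTTGCCGC or TTTGGCGC on either strand) at 110 to 103, 106 to 99 and 47 to 40 bases before the start, of which those farthest from the start overlap, and CCAAT boxes (chr1:128359706-128359820, minus strand). Capitals in Mki67 mark 2 matches to the cell cycle homology region (CHR, TTTGAA) at 116 to 111 and 98 to 93, and 3 CCAAT boxes (chr7:135716460-135716574, minus strand). An E2F match was found in 11 of 25 replication promoters, 44%, against 4.70% of all compared promoters. A CHR match was found in 17 of 24 G2/M promoters, 70.8%, against 12% of all, and a CCAAT box in 19 of the 24 against 39.9% of all. These shares describe the lists, whichever way their members differed from control. Over the called genes, an E2F match was found in 5.77% of the lower and 1.28% of the higher promoters. For CHR these shares were 12.1% and 14.1%, and for the CCAAT box 39.1% and 38.2%.
Mcm6: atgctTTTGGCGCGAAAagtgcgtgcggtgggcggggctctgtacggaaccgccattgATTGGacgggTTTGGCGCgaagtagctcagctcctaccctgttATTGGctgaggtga
Mki67: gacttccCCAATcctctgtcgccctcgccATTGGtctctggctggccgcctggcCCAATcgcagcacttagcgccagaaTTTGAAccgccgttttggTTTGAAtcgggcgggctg

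Survival, stress and organelle lists were mixed. Of 26 p53 target, CDK inhibitor and BCL2 family genes, 7 were higher and 4 lower, 26.9% and 15.4% beside 5.22% and 4.93% of all compared genes. Gadd45b, a stress-inducible regulator of MAP kinases, stood at 137 FPKM in harmine plus LPS, 100.004 in LPS and 2.93 in control. Bcl2l1, the survival protein BCL-XL, stood at 47.4, 47.7 and 5.11 FPKM, and Bcl2l11, the death-promoting protein BIM, at 35.5, 14.0 and 3.61 FPKM. Genes of opposite roles in cell death were thus both higher. Of 11 inflammasome genes 2 were higher and 2 lower, 18.2% each way. Nlrp3, the sensor, stood at 82.6 FPKM in harmine plus LPS, 177 in LPS and 17.0 in control. P2rx7, the ATP channel that triggers it, stood at 1.34, 1.42 and 5.48 FPKM.

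Of 24 unfolded protein response and ATF4 genes, 5 were lower, 20.8% beside 4.93% of all compared genes, and none higher. Their median was -0.42 log2, beside -0.27 log2 in LPS. Sdf2l1, a cofactor of chaperones in the endoplasmic reticulum, stood at 24.3 FPKM in harmine plus LPS, 41.9 in LPS and 110.3 in control. Xbp1, the factor that raises such chaperones, stood at 24.4, 50.9 and 69.8 FPKM, and the disulfide isomerase Pdia4 at 30.5, 40.9 and 82.6 FPKM. Each of these was lowest in harmine plus LPS. Hspa5, the chaperone BiP, differed from control by -0.46 log2 in harmine plus LPS and by 0.56 in LPS, and the ATF4 target Asns by 0.40 and 0.35. Of 12 cytosolic and mitochondrial heat shock genes 2 were higher, 16.7% beside 5.22% of all compared genes. They were the near-identical pair Hspa1b and Hspa1a, at 8.13 and 1.99 FPKM in harmine plus LPS against 0.526 and 0.131 in control. Both were under 1 FPKM in control and were compared only through their level in harmine plus LPS. Of 24 lysosomal genes 4 were lower, 16.7% beside 4.93% of all compared genes, and none higher, with a median of -0.35 log2. Among the 4 were Tfeb, a master factor of lysosome genes, at 0.312 FPKM in harmine plus LPS against 4.70 in control, and the acid lipase gene Lipa.

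Transcripts of harmine's known targets stood near control. Dyrk1a was at 8.11 FPKM in harmine plus LPS, 6.4 in LPS and 8.01 in control, with a ratio to control of 1.01 (0.929 to 1.1). Maoa, encoding monoamine oxidase A, was at 8.29, 8.79 and 7.81 FPKM. In the list of targets, related kinases and NFAT genes, 1 of 15 members was higher, the splicing kinase Clk3 at 17.3 FPKM against 8.00 in control, and 1 lower, Nfatc2 at 1.46 against 4.85. Each is 6.67% of the list, near the 5.22% and 4.93% of all compared genes. Nfatc1, a calcium-regulated factor whose protein DYRK1A phosphorylates, stood at 20.6 FPKM in harmine plus LPS, 7.14 in LPS and 17.7 in control. Its harmine plus LPS and control values were thus close, with the LPS value below both. In the osteoclast marker list 2 of 9 were higher, Fosl1 and Mmp9, which is 22.2% beside 5.22% of all compared genes. The multinucleation gene Dcstamp stood at 10.6, 7.77 and 5.92 FPKM in harmine plus LPS, LPS and control. Of the 9 markers, 4 were under 1 FPKM in control, Mmp9 at 0.0507 among them, and were compared through harmine plus LPS.

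A group of genes differed from control in harmine plus LPS but by under 1.5-fold in LPS. The 12 with the largest difference held 9 lower and 3 higher genes. Xbp1 was among the lower ones, as were Coro1a, an actin-binding protein of leukocytes, at 63.4 FPKM in harmine plus LPS, 127 in LPS and 178 in control, and Igsf6, an immunoglobulin family membrane protein, at 11.1, 39.5 and 28.9 FPKM. Slpi, an inhibitor of leukocyte proteases, stood at 2.37, 7.62 and 10.1 FPKM, and P2ry6, a receptor for UDP, at 7.42, 13.0 and 19.6 FPKM. The 3 higher genes were Cited2, a transcriptional cofactor that limits HIF-1, at 382, 191 and 149 FPKM, Btg1, an antiproliferative gene, at 89.7, 48.2 and 35.2 FPKM, and Tnfrsf23, which binds the death ligand TRAIL without signalling, at 14.4, 4.55 and 5.23 FPKM. These genes were chosen by both differences, so the pattern is the rule's and the values describe it.

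The opposite pattern, 4-fold or more with LPS and the smallest difference in harmine plus LPS, was sought as well. Abcg1, the sterol exporter, stood at 6.14 FPKM in harmine plus LPS, 1.76 in LPS and 10.3 in control. Sod2, the mitochondrial superoxide dismutase, stood at 16.4, 41.2 and 9.41 FPKM, and Clec4e, a receptor for mycobacterial glycolipid, at 12.9, 39.2 and 7.04 FPKM. Gpr84, a receptor for medium-chain fatty acids, stood at 95.7, 216 and 38.6 FPKM and Ifitm3, which blocks virus entry, at 467, 838 and 181 FPKM. The cell cycle genes E2f8, Lig1, Pimreg, Psrc1 and Ankle1 were also among the 12, with differences between -1.31 and -0.96 log2 in harmine plus LPS. The rule selects such genes for a harmine plus LPS value near control, so the values are given as a description.

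**Figure D5:**
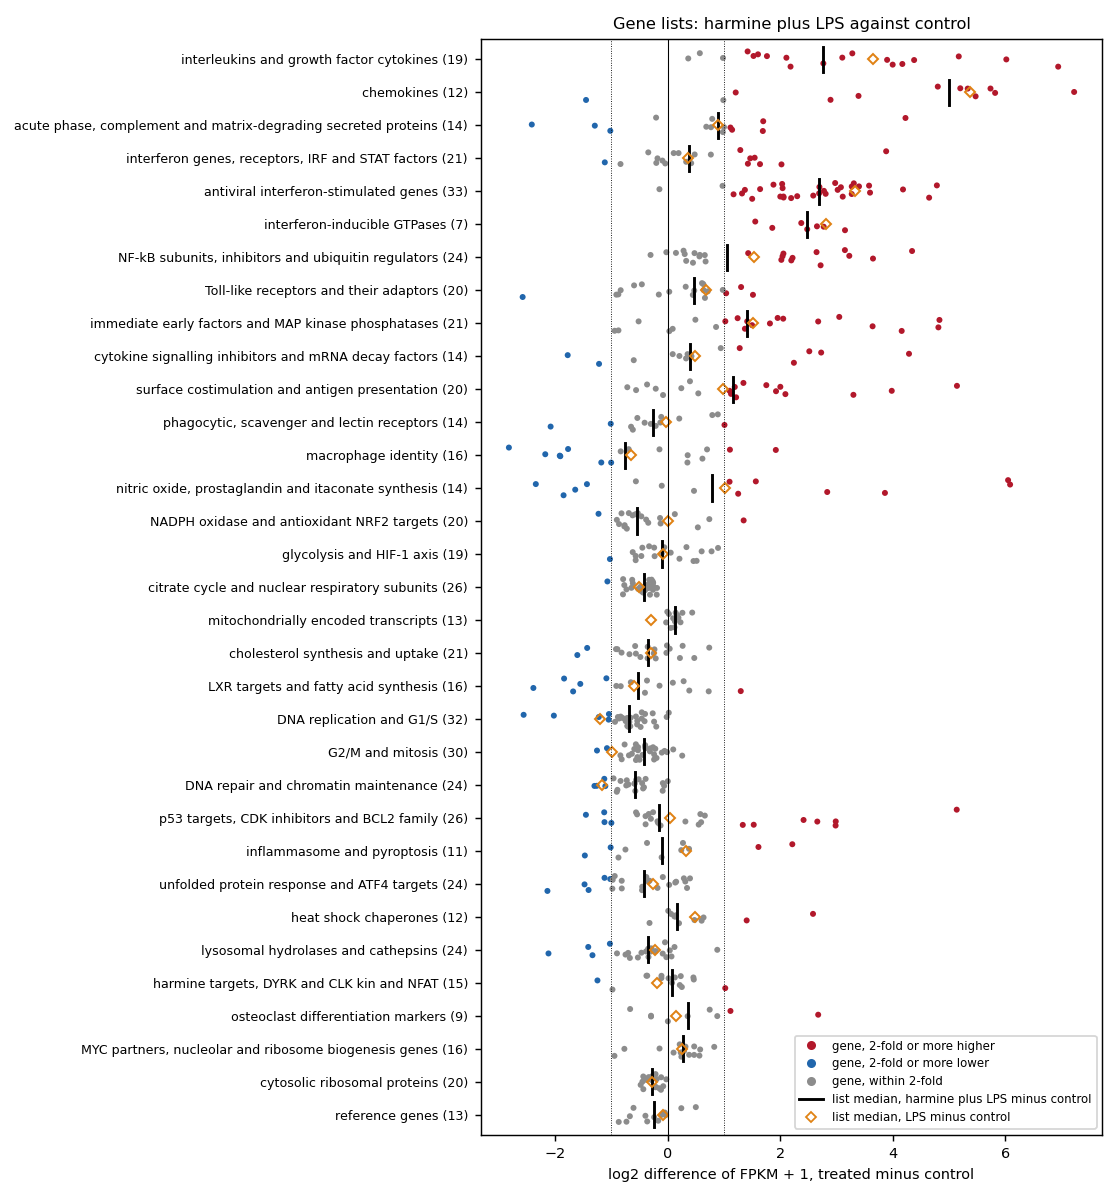
Difference in log2(FPKM + 1) between harmine plus LPS and control (horizontal) for the compared members of 33 gene lists, with the number of members in brackets, black bars at list medians and open diamonds at the medians of LPS minus control. Chemokines (median 5.00), cytokines (2.76) and antiviral genes (2.69) lie farthest to the right, and macrophage identity (-0.77) and replication genes (-0.69) farthest to the left; both sets of medians share the control library.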

How the data were processed

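RNA from 3 cultures, harmine plus LPS, LPS and control, was sequenced as 150-base pairs from strand-marked (dUTP) libraries, per the labels' protocols. Per the submitters' processing notes the genome was mm10 and the tools included StringTie 2.1.6, HISAT2 2.2.1, cutadapt 1.9, edgeR and DESeq2. Which tool did which step, and the strand setting of the counting, are not given in the sources used here. For every gene and library the deposited table holds FPKM and estimated counts, per the file headers. Among low deposited counts 4 is more frequent than 3 (994 against 619 genes in harmine plus LPS), and read pairs were taken as counts divided by 4. This is an assumption, since counts of 1, 2 and 3 also occur, and every counting interval and floor rests on it. It gives 14097993 pairs in harmine plus LPS, 13211397 in LPS and 14542499 in control.

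Differences were taken as log2(FPKM + 1) in harmine plus LPS minus control over genes with 1 FPKM or more in either library, and called at 2-fold, with 1.5-fold and 4-fold beside it. Fold values with 95% intervals are FPKM ratios, and the intervals are exact binomial ones on read pairs and cover counting error only. For a fold against a level of 0, that level was set to 3 read pairs, or 12 counts. With 1 library in each group no test was run. Ranked genes were taken among those with 10 FPKM or more in either library, without predicted, pseudo, mitochondrial and small RNA genes. They are the 15 highest and 15 lowest differences and the 10 most abundant. With them are the 12 largest that were under 1.5-fold with LPS and the 12 smallest among those 4-fold or more with LPS. From all compared genes, at the 1 FPKM filter, up to 4 members of each of 33 lists with the largest difference were named. Whatever their level, Maoa, Dyrk1a, Nfatc1, Tnf, Il6, Il1b, Nos2, Ptgs2, Csf1r and Mki67 were named as well. A few further list members and other-tissue genes were named after their values were seen, to show members near control or on the other side. Some list members are counted but not reported by name. The members and lists were chosen with earlier results of these data known. Promoters, 250 bases before to 50 after each start, came from RefSeq on GRCm38.p6, the assembly also called mm10, for genes whose symbol matched and whose start lay within 1000 bases of the deposited one. Alternatives were other pseudocounts, filters, thresholds, scalings and the deposited CPM. Reads shared between near-identical genes (Defa, Hspa1a and Hspa1b, Oas1, Ifit3, Gbp, Slfn, H2) make their values uncertain. The code was tested on simulated data and used Python 3.11.15, NumPy 2.4.6, pandas 2.3.3, SciPy 1.17.1 and Matplotlib 3.10.9.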

Additional observations from a re-analysis of the deposited data

How the results depend on the processing

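As analysed, 627 genes were higher and 593 lower in harmine plus LPS than in control. A pseudocount of 0.1 FPKM gave 1007 higher and 971 lower, and one of 5 FPKM 296 and 188. A 1.5-fold threshold gave 1467 and 1651, and a 4-fold threshold 170 and 47. TPM computed from the FPKM, with its own filter, gave 1359 and 959, and the deposited CPM 1271 and 887. Upper-quartile scaling gave 829 higher and 393 lower, and median-of-ratios scaling 562 and 691, with 44.9% of the calls higher and a median over all genes of -0.10 log2. A filter at 5 FPKM gave 437 and 440, and no filter 627 and 593. Protein-coding genes alone gave 525 and 525, an alternative chosen after seeing the data, as was leaving out the other-tissue genes. The causes of these shifts were not tested. Of 1092 values of named genes under the alternatives 442 moved beyond their counting interval and 0 changed sign while past 2-fold in the main comparison, and of 660 list counts 151 moved by more than 1.5 times. Of 264 list medians 21 moved by 1.5-fold or more, and the medians of 6 lists changed sign. Without a filter this was phagocytic receptors (0.07, against -0.26), and at a 5 FPKM filter acute phase genes (-0.21, against 0.88). Under median-of-ratios scaling it was harmine targets (-0.004, against 0.08). Under upper-quartile scaling it was glycolysis (0.10, against -0.11), p53 and BCL2 genes (0.04, against -0.15) and inflammasome genes (0.01, against -0.11). No paired analysis was possible because each group holds 1 library, and none could be left out. Counting error is wide for genes near 0 in control, such as Rsad2, and the spread between cultures is unknown.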

Other observations

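Genes called in the same direction lay near each other in several places, though not always as neighbours. Groups of at least 3 genes called in 1 direction, with gaps of at most 100 kb between their starts, numbered 32 among the higher genes and held 134 of them, 21.4% of 627; 12 of these groups also spanned compared genes not called higher, with 156 compared genes inside in all. Among the lower genes there were 14 groups with 50 genes, 8.43% of 593, of which 10 spanned others, with 86 compared genes inside. The higher groups held the chemokine genes Ccl5, Ccl9, Ccl3 and Ccl4 on chromosome 11, the Ifit genes on chromosome 19, the Oas genes on chromosome 5 and the alpha-defensins on chromosome 8. Among the lower groups was the desaturase cluster on chromosome 19, where Scd2, Scd1, Scd3 and Scd4 differed by -2.39, -1.55, -1.21 and -1.09 log2. Another held 4 Cd300 receptor genes on chromosome 11, and Ighm with joining segments of the immunoglobulin heavy chain formed one on chromosome 12. Members of such clusters are often close copies, so their reads may be shared.

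By the deposited annotation of transcription factor families, bZIP factors had 9 of 41 compared members higher and 1 lower in harmine plus LPS, against 5.22% and 4.93% of all genes. Jdp2, a repressor that pairs with JUN proteins, was higher by 3.08 log2 and Cebpd, an inflammatory C/EBP factor, by 1.69. E2F factors had 2 of 10 lower, E2f2 and E2f8, and none higher. In the ETS family Ets2 differed by 1.20 log2, while Elk3 and Fli1 differed by -1.60 and -1.21 log2. Id1, which blocks bHLH factors, was higher by 2.63 log2.

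By the deposited KEGG annotation, which shares many genes with the lists above, cytosolic DNA sensing had 16 of 46 compared genes higher and none lower, and NF-kappa B signalling 25 of 73 higher and 2 lower. PPAR signalling had 13 of 45 lower and 5 higher. Of all compared genes, 4.93% were lower and 5.22% higher. Genes under 1 FPKM in control entered these pathways and the factor families above through harmine plus LPS, which favours higher calls. How many did so was not counted. Unsaturated fatty acid synthesis had 9 of 21 lower, Acaa1a, Acaa1b, Fads1, Fads2, Elovl6 and the 4 Scd genes, and none higher.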
